A study of Mus musculus with 6 samples.

Results

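The genes described here are the receptors for serotonin, dopamine, noradrenaline and adrenaline, histamine and acetylcholine. They were taken from the deposited expression table by a rule on the symbol alone, which used no measured value. It took every serotonin (*Htr*), dopamine (*Drd*), adrenergic (*Adra* and *Adrb*), histamine (*Hrh*), muscarinic (*Chrm*) and nicotinic (*Chrn*) receptor gene. The table itself holds only genes with a mean CPM above 1 in at least 1 group, and earlier results of these data were known. This gave 37 of the 13886 protein-coding genes in the table, in 6 families. The mouse annotation holds 53 such symbols. The remaining 16 were not analysed here, and these are *Htr2b*, *Htr3b*, *Drd4*, *Adra2b*, *Hrh4*, *Chrna1*, *Chrna2*, *Chrna5*, *Chrna6*, *Chrna9*, *Chrna10*, *Chrnb1*, *Chrnb4*, *Chrnd*, *Chrne* and *Chrng*. All 5 muscarinic genes were in the table, against 12 of 14 serotonin, 4 of 5 dopamine, 8 of 9 adrenergic, 3 of 4 histamine and 5 of 16 nicotinic genes.

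The RNA came from the medial amygdala (MeA) of adult female mice of the genotype Kiss1Cre+/Rpl22HA+/+, written KissCre+/Rpl22HA+/+ in some labels, in which cells that express Cre from *Kiss1* carry an HA tag on a ribosomal protein. Tagged ribosomes were pulled down with an HA antibody (immunoprecipitation, IP) from MeA micropunches, and the RNA bound to them was sequenced. The OVX group was ovariectomized and received no estradiol (E2) at the end, whereas the E2 group was ovariectomized and then carried E2 for 5 days. Females of both groups had the same genotype, were ovariectomized at 8 weeks of age, were pre-treated with E2 for 4 days and then spent 7 days without it. There were 3 libraries per group, each from 1 pool of 4 brains, so that p-values measure the spread between pools and not between single mice. Cre in these mice follows *Kiss1*, a gene that E2 itself raises in the MeA, and the shared pre-treatment was the step meant to bring Cre to a sufficient level in both groups. In such pooled RNA, fewer cells of a type and less RNA per cell cannot be told apart.

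Monoamines and acetylcholine reach the amygdala from small groups of neurons in the brainstem, hypothalamus and basal forebrain, and most of their receptors act slowly through G proteins. Receptors coupled to Gq raise phospholipase C and calcium and generally make a neuron more excitable, those coupled to Gs raise cyclic AMP, and those coupled to Gi lower it and often dampen firing or release. The nicotinic subunits and *Htr3a* instead build ion channels that open within milliseconds of binding their transmitter.

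Library sizes after scaling lay between 28.1M and 34.2M, and counts of reads rebuilt for the receptor genes ranged from 20 for *Htr1f* to 10656 for *Htr2c*. *Kiss1* (ENSMUSG00000115958) had log2 CPM (counts scaled to the library size) of 2.29, 1.82 and 1.13 in the OVX libraries and 3.72, 3.80 and 3.45 in the E2 libraries, a difference of 1.91 (adjusted p = 0.0047, limma). A second *Kiss1* entry (ENSMUSG00000116158) had -5.82, -0.65 and 0.10 in OVX and 2.97, 3.18 and 2.65 in E2 libraries. Its difference was 5.05 (adjusted p = 0.094, limma), so neither entry alone gives the difference of the whole gene. The log2 mean of 5 neuronal markers was 9.35 to 9.47 over the 6 libraries. Markers of other cells were present too. The mean log2 CPM of 8 oligodendrocyte markers was 6.61 to 7.0 in OVX and 6.77 to 7.16 in E2 libraries, that of 7 astrocyte markers 5.80 to 6.17 and 5.95 to 6.28, that of 9 microglial markers 3.59 to 3.96 and 3.56 to 3.75, and that of 9 endothelial and mural markers 4.06 to 4.91 and 4.21 to 4.70. No gene of these lists passed the adjusted threshold. Which cells the receptor transcripts came from was not tested.

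*Htr2c*, a Gq-coupled serotonin receptor known for its part in appetite, anxiety and the control of neuronal firing, had the highest mean level of the receptors, by a margin that depended on how its length was counted. Levels were compared between genes as CPM per kilobase of the longest annotated transcript, given as the mean of the 6 libraries on the log2 scale and turned back to linear units. *Htr2c* stood at 55.9 CPM per kilobase, and *Hrh3* and *Chrm1* followed at 30.1 and 29.3. These 3 genes held 46.7% of the summed level per kilobase of all 37 receptors, and *Htr2c* alone held 22.7%. Per kilobase of all annotated exonic bases of each gene, which are 9328 for *Htr2c* against 4883 in its longest transcript, *Htr2c* stood at 29.2, *Chrm1* at 28.3 and *Hrh3* at 25.8. On that scale *Htr2c* was above *Chrm1* in 4 and above *Hrh3* in 5 of the 6 libraries, it held 14.5% of the sum and the 3 genes 41.2%. By the longest transcript, at the other end, *Drd3*, *Chrnb3*, *Htr1d*, *Chrna3*, *Drd5* and *Htr1f* each had a mean below 1 CPM per kilobase.

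**Figure D1:**
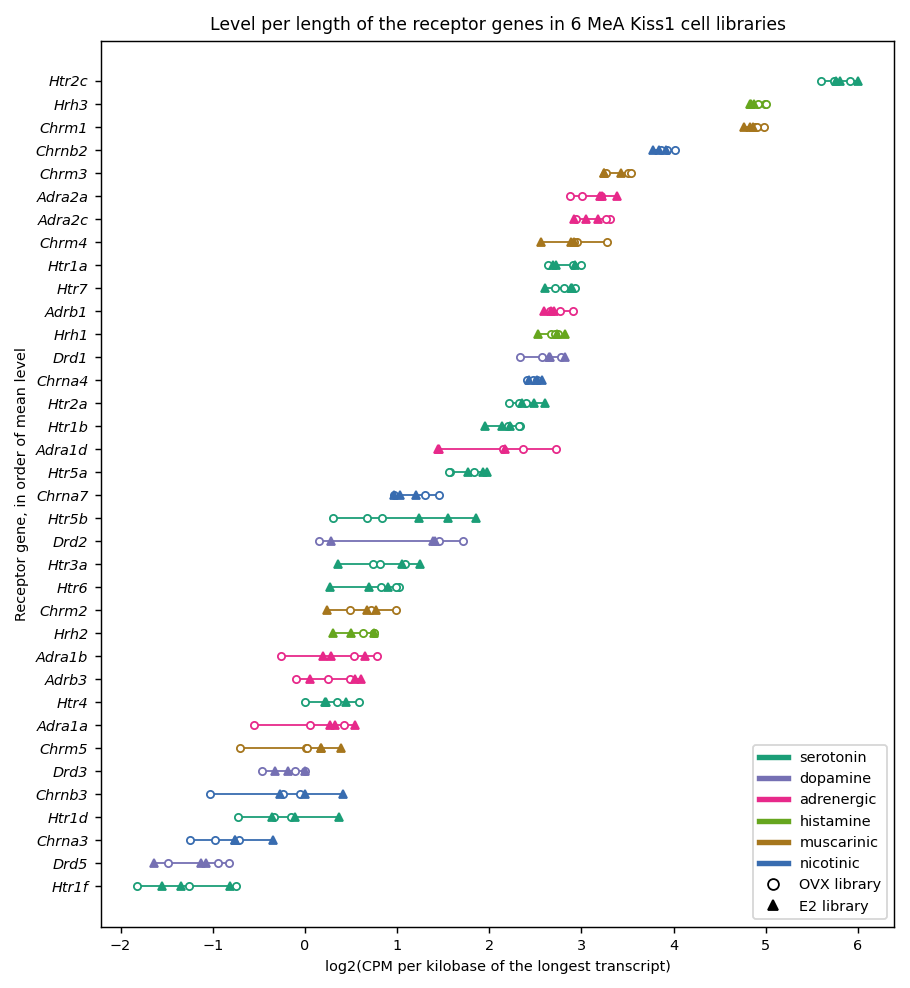
Level of 36 of the 37 receptor genes in the 6 libraries, as log2 of CPM per kilobase of its longest transcript, with open circles for OVX and filled triangles for E2 libraries, lines for the full range and colours for the 6 families. On this length *Htr2c* lies above the other genes in every library, with *Hrh3* and *Chrm1* next, but per kilobase of all exonic bases (29.2, 25.8 and 28.3) the ranges of *Htr2c* and *Chrm1* overlap.

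In this order, ranges were separate only in a few places. Of 36 pairs of neighbours in it, 32 had ranges over the 6 libraries that overlapped. Overlapping ranges do not show that neighbours were equal. A gene can still lie above the next in each library, as *Adra2c* did above *Chrm4*. The 4 steps without overlap lay below *Htr2c*, between *Chrm1* and *Chrnb2*, between *Chrnb2* and *Chrm3*, and between *Htr5a* and *Chrna7*. Per kilobase of all exonic bases, 34 pairs overlapped, and the only steps lay between *Hrh3* and *Chrnb2* and between *Chrnb2* and *Adra2a*. Among all genes of the table with a transcript length, *Htr2c* ranked 1175 by level per kilobase of the longest transcript, *Hrh3* ranked 2266 and *Chrm1* ranked 2334. The annotated models of *Chrm4* (1440 nt) and *Chrm5* (1599 nt) hold only coding sequence, so their levels per kilobase rest on shorter models than those of the other receptors.

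*Htr2c* (ENSMUSG00000041380) spans 146962513 to 147197277 on the plus strand of chromosome X (GRCm38), and *Chrnb2* (ENSMUSG00000027950), the most abundant channel subunit per kilobase, spans 89746195 to 89764632 on the minus strand of chromosome 3. The 250 bases upstream of their starts are shown because these genes had the highest mean level per kilobase of the G protein-coupled and of the channel-forming receptors on both length scales, and because the treatment, E2, acts through receptors that bind DNA. They are taken from RefSeq promoters on GRCm38.p6 and written 5′ to 3′ on the strand of the gene, at chrX:146962263-146962512 (plus strand) and chr3:89764633-89764882 (minus strand), with each copy of the estrogen response half-site GGTCA on either strand in capitals.
Htr2c: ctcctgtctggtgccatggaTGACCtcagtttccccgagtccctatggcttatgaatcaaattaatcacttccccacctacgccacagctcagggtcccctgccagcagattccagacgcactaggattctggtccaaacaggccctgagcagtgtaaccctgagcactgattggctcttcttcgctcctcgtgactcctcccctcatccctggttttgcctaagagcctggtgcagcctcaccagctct
Chrnb2: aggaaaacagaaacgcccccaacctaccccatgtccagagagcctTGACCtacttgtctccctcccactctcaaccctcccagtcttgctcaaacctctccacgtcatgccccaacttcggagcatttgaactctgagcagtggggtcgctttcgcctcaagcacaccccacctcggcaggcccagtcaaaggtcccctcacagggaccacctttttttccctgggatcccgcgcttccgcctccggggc

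Each of these windows held 1 half-site. RefSeq promoters were at hand for 28 of the 37 receptors, 36 windows in all, and 14 of these (38.9%) held a half-site, against 11577 of 32851 windows over all promoters (35.2%). The full palindrome GGTCANNNTGACC, 2 half-sites facing each other, was in 0 of the 36 windows and in 21 of all 32851 (0.0639%). A match describes the letters and not binding.

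None of the 37 receptors passed an adjusted p of 0.05 between E2 and OVX libraries in limma, where 0.288% of all genes did (40 genes, 0.23% higher and 0.0576% lower with E2). The smallest adjusted p was 0.218, for *Htr5b*. At an unadjusted p under 0.05 there were 3 receptors (8.11%), *Htr5b*, *Adra1d* and *Adra2a*, against 8.56% of all genes. In 5 receptors (13.5%) the OVX and E2 libraries did not overlap, against 13.7% of all genes, 2 of them higher with E2 (6.85% of all genes) and 3 lower (6.82%). With E2, 17 receptors had a higher and 20 a lower mean (45.9% higher, against 51.1% of all genes), and the median difference was -0.01, against 0.0034 over all genes. Shares so close to the background are no result about the receptors as a group. The count of 40 genes was 20 without E2 replicate 2, 21 without OVX replicate 1, 26 without E2 replicate 1 and 66 without E2 replicate 3, while that of the receptors was 0 in each.

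**Figure D2:**
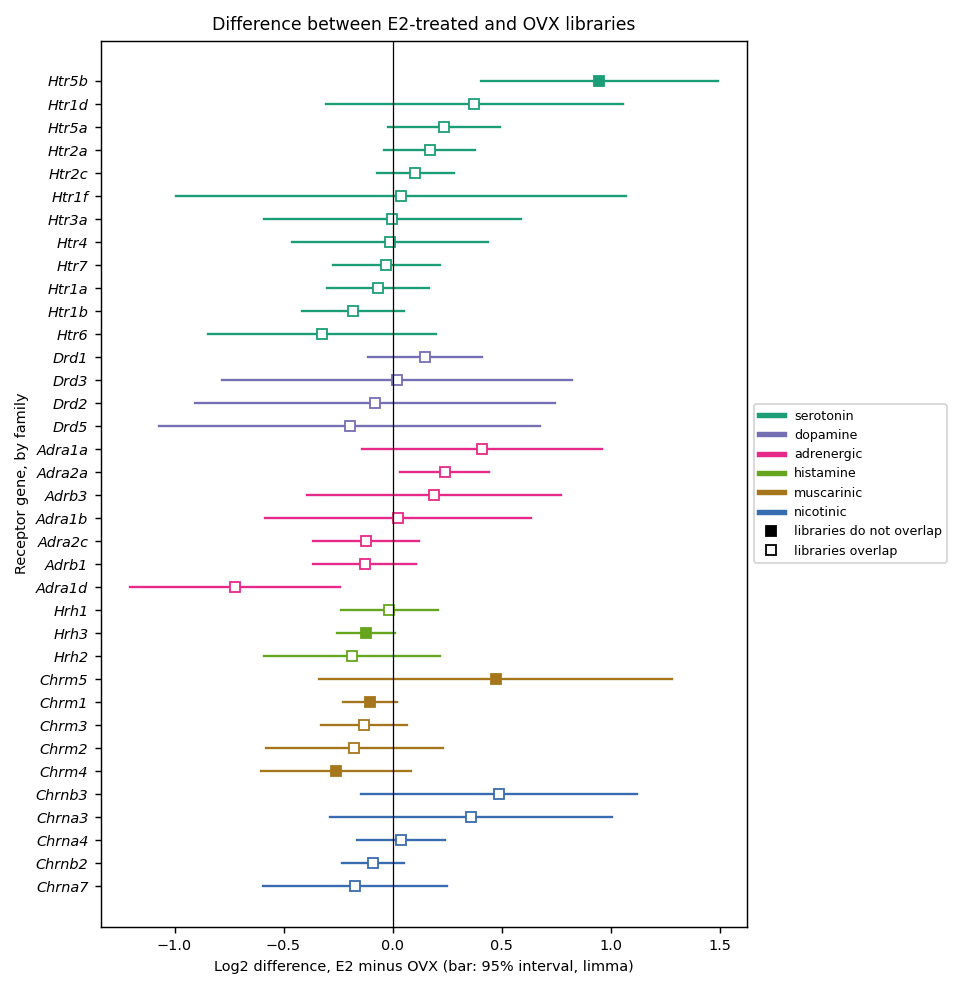
Log2 difference between the means of the 3 E2 and 3 OVX libraries for 36 of the 37 receptor genes, grouped by family, with the 95% interval from limma. Filled squares mark the 5 genes whose libraries did not overlap, and the intervals of *Htr5b* (0.41 to 1.49), *Adra1d* (-1.20 to -0.24) and *Adra2a* (0.03 to 0.44) do not include 0.

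The differences were bounded more tightly for abundant receptors. Of the 16 genes with a mean log2 CPM of at least 4, the largest difference in either direction was 0.24, with SEs of at most 0.12. The 21 genes below that level had SEs of up to 0.48 and differences of up to 0.95. The 95% interval lay within 0.5 of 0 on the log2 scale for 17 receptors and within 1 for 29. A change of 2-fold was thus outside the interval for most of them. The intervals that reached past 1 included those of *Adra1d* (-1.20 to -0.24) and *Htr5b* (0.41 to 1.49), whereas that of the rarer *Drd3* (-0.78 to 0.82) did not. A p that misses the threshold does not show that a gene was the same in both groups.

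Among the serotonin receptors, 6 had a higher and 6 a lower mean with E2. *Htr2c* had log2 CPM of 7.89, 8.03 and 8.20 in OVX and 8.05, 8.29 and 8.09 in E2 libraries. The groups overlapped, with E2 replicates 1 and 3 inside the OVX range and replicate 2 above it, and the difference was 0.10 ± 0.08 (SE, adjusted p = 0.80, limma, n = 3 per group). *Htr2a*, the other Gq-coupled member and the main target of psychedelic drugs, was far lower per kilobase (5.26), and *Htr2c* exceeded it 9.71- to 11.6-fold over the 6 libraries by the longest transcript and 5.08- to 6.05-fold by all exonic bases. Its mean log2 CPM was 4.88 (4.70 to 5.09), with a difference of 0.17 ± 0.10.

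*Htr5b* (ENSMUSG00000050534, chromosome 1, 121509842 to 121528465, minus strand) had the largest difference of all 37 genes. It is a little studied serotonin receptor whose human counterpart is not functional. Its log2 CPM was 1.79, 1.25 and 1.62 in OVX and 2.19, 2.80 and 2.51 in E2 libraries, or 1.55 ± 0.27 against 2.50 ± 0.31 (SD, n = 3). Every E2 library lay above every OVX library. The difference was 0.95 ± 0.25 (SE), a ratio of 1.93, with an unadjusted p of 0.0022 and an adjusted p of 0.218 in limma over all genes. With each library left out in turn the difference stayed between 0.80 and 1.10, and over all alternatives the adjusted p ranged from 0.165 to 0.660. The counts behind it were 81 to 237 reads per library. Its relative *Htr5a*, which couples to Gi, had a mean of 4.20 (3.99 to 4.41) and a difference of 0.24 ± 0.12, with groups that overlapped. *Htr5a* exceeded *Htr5b* 1.09- to 2.89-fold per kilobase.

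Of the Gi-coupled serotonin receptors, *Htr1a*, the autoreceptor of serotonin neurons and an inhibitory receptor on their targets, had a mean log2 CPM of 4.98 (4.80 to 5.16) and a difference of -0.07 ± 0.11. *Htr1b*, a receptor of nerve endings that limits transmitter release, had 4.44 (4.19 to 4.57) and -0.18 ± 0.11, and 852 of its 4724 exonic bases are shared with an antisense gene. Per kilobase, *Htr1a* exceeded *Htr1b* 1.23- to 1.70-fold, and every library had more *Htr1a*. *Htr1d*, at 1.32 (0.81 to 1.91), and *Htr1f*, at 0.11 (-0.45 to 0.62), both targets of the migraine drugs called triptans, were close to the lower end of what the table holds. Their differences were 0.37 ± 0.32 and 0.04 ± 0.48.

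The Gs-coupled serotonin receptors were led by *Htr7*, a receptor tied to circadian timing, with a mean log2 CPM of 4.46 (4.26 to 4.59) and a difference of -0.03 ± 0.11. *Htr4* stood at 2.52 (2.22 to 2.80) with -0.01 ± 0.21, and *Htr6* at 2.01 (1.5 to 2.25) with -0.32 ± 0.24. *Htr3a*, the channel subunit that marks a class of cortical interneurons, had 1.94 (1.41 to 2.30) and a difference of -0.00096 ± 0.27. Its groups had almost equal means, yet the interval ran from -0.59 to 0.59.

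Dopamine receptors held only 3.99% of the summed level per kilobase. *Drd1* (ENSMUSG00000021478, chromosome 13, 54051183 to 54055705, minus strand), the Gs-coupled receptor of the direct striatal pathway, had log2 CPM of 4.18, 4.41 and 4.61 in OVX and 4.50, 4.66 and 4.49 in E2 libraries. The groups overlapped, with a difference of 0.15 ± 0.12 (SE, adjusted p = 0.80, limma). *Drd2* (ENSMUSG00000032259, chromosome 9, 49340627 to 49408177, plus strand), the Gi-coupled receptor of the indirect pathway and the target of antipsychotic drugs, had 2.80, 3.07 and 1.5 in OVX and 1.63, 2.76 and 2.74 in E2 libraries. It had the widest range of any receptor, 1.57, with OVX replicate 3 and E2 replicate 1 far below the other 4 libraries, and its difference between groups was -0.08 ± 0.38 (adjusted p = 0.98). *Drd1* thus exceeded *Drd2* per kilobase of the longest transcript by between 1.81- and 6.16-fold, depending on the library.

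The striatum lies close to the MeA, and a list of 6 striatal markers was read beside *Drd2*. *Adora2a*, the adenosine receptor of the indirect pathway, had log2 CPM of 0.97, 1.89 and -0.14 in OVX and 0.01, 1.09 and 2.27 in E2 libraries. It was lowest in the same pair of libraries as *Drd2*, whereas *Ppp1r1b*, *Pde10a*, *Rgs9* and *Gpr6* did not have their 2 lowest values in that pair. The mean log2 CPM of the whole list was 3.70 to 4.31 in OVX and 3.73 to 4.40 in E2 libraries, with OVX replicate 3 and E2 replicate 1 lowest, and 3 of its 6 genes had a higher mean with E2, 0 past the adjusted threshold. The part of striatal tissue in the *Drd2* values was not tested. *Drd3*, at a mean of 0.60 (0.32 to 0.78), and *Drd5*, at 0.47 (0.02 to 0.84), are Gi- and Gs-coupled relatives and were rare, with differences of 0.02 ± 0.37 and -0.20 ± 0.41. Of the exonic bases of *Drd5*, 1531 of 3152 are shared with an antisense gene.

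**Figure D3:**
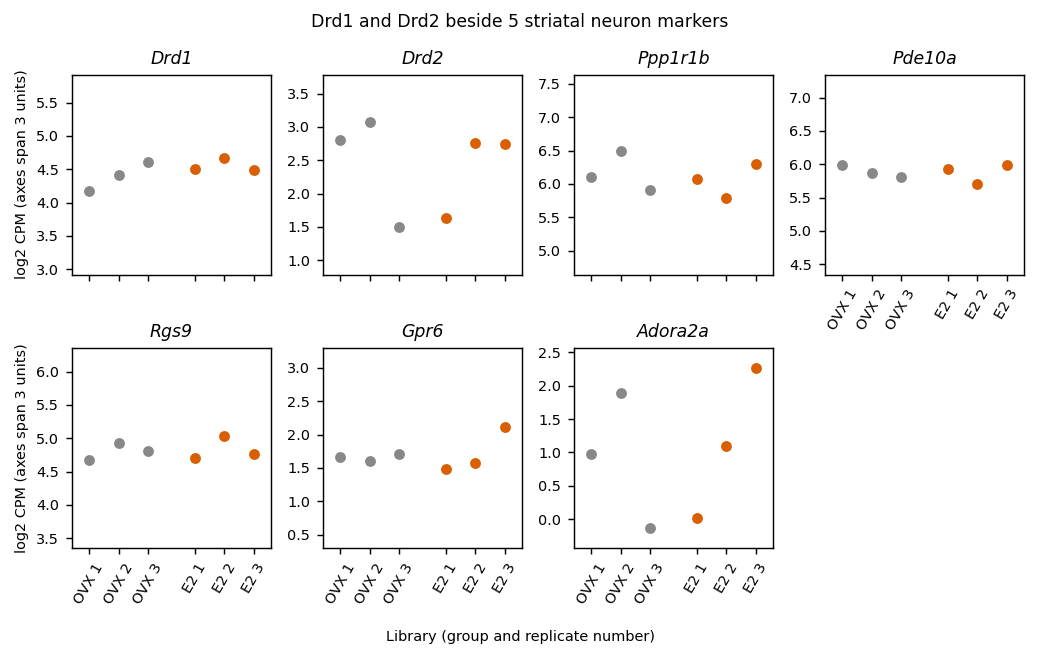
Log2 CPM of *Drd1*, *Drd2* and 5 striatal neuron markers in each library, grey for OVX and orange for E2, with axes that all span 3 log2 units. *Drd2* and *Adora2a* are lowest in OVX replicate 3 and E2 replicate 1, while *Drd1* (4.18 to 4.66) is not low in either.

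The adrenergic family had 5 higher and 3 lower means with E2. *Adra2a* (ENSMUSG00000033717, chromosome 19, 54044151 to 54048982, plus strand), the Gi-coupled receptor through which clonidine and guanfacine act, had log2 CPM of 5.15, 5.28 and 5.48 in OVX and 5.66, 5.49 and 5.48 in E2 libraries. The E2 libraries were the higher ones apart from replicate 3, which lay just under OVX replicate 3. The difference was 0.24 ± 0.09 (SE), with an unadjusted p of 0.025 and an adjusted p of 0.490 in limma. *Adra2c*, the other Gi-coupled member, had a mean of 4.90 (4.70 to 5.09) and a difference of -0.12 ± 0.11, of the opposite sign. Per kilobase the 2 genes were near each other, with a ratio of *Adra2a* to *Adra2c* between 0.742 and 1.38.

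*Adra1d* (ENSMUSG00000027335, chromosome 2, 131545850 to 131562283, minus strand), a Gq-coupled receptor for noradrenaline, had the most negative difference of the 37 genes. Its log2 CPM was 3.65, 3.07 and 3.29 in OVX and 2.37, 2.38 and 3.10 in E2 libraries, or 3.34 ± 0.29 against 2.62 ± 0.42 (SD, n = 3). E2 replicates 1 and 2 were low, whereas replicate 3 lay within the OVX range, so the groups overlapped. The difference was -0.72 ± 0.22 (SE), a ratio of 0.607, with an unadjusted p of 0.0063 and an adjusted p of 0.321 in limma. Without 1 library it stayed between -0.96 and -0.56, with adjusted p from 0.0915 to 0.745.

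Markers of forebrain excitatory neurons were read beside *Adra1d*. Both *Adra1d* and the mean of the markers were highest in OVX replicate 1 and lowest in E2 replicate 1. Within E2 both rose from replicate 1 to replicate 3. Within OVX their order differed, with *Adra1d* lowest in replicate 2 (3.07) and the mean of the markers in replicate 3. The mean log2 CPM of these 6 genes, among them *Slc17a7*, the vesicular glutamate transporter of the cortex, was 5.49, 5.16 and 4.99 in OVX and 4.56, 4.72 and 5.0 in E2 libraries, with E2 replicate 3 again the highest of the E2 group. All 6 had a lower mean with E2 (median difference -0.48), though *Tbr1* by only 0.05. At an unadjusted p under 0.05 in limma there were 5, and 0 passed the adjusted threshold. Their summed CPM was 855 to 1109 in OVX and 651 to 846 in E2 libraries. This sum was mostly *Slc17a7*, at a mean log2 CPM of 9.47 against 6.15 for *Tbr1*, the next. The mean log2 CPM of the list overlapped between groups. The part of these neurons in the *Adra1d* result was not tested. *Adra1d* also shares 147 exonic bases with an antisense gene, and the library kit did not keep the strand.

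*Adra1a*, at a mean log2 CPM of 2.27 (1.54 to 2.64), and *Adra1b*, at 2.10 (1.47 to 2.52), couple to Gq like *Adra1d* and had differences of 0.41 ± 0.26 and 0.02 ± 0.28. *Adra1d* exceeded *Adra1a* per kilobase in all 6 libraries, by 1.88- to 9.70-fold by the longest transcript and 3.83- to 19.8-fold by all exonic bases. Of the beta receptors, which couple to Gs, *Adrb1*, the main beta receptor of heart and forebrain, stood at 4.28 (4.15 to 4.47), with a difference of -0.13 ± 0.11. *Adrb3*, best known from fat tissue, had 1.79 (1.39 to 2.09) and 0.19 ± 0.27, and 839 of its exonic bases lie under an antisense gene.

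The 3 histamine receptors all had a lower mean with E2, where 51.1% of all genes had a higher one. The groups did not overlap in 1 of them, against 13.7% of all genes. The difference of *Hrh1* changed sign in 2 of 17 alternatives of the fit. *Hrh3* (ENSMUSG00000039059, chromosome 2, 180099465 to 180104488, minus strand), the Gi-coupled receptor that limits release of histamine and of other transmitters, had log2 CPM of 6.43, 6.44 and 6.35 in OVX and 6.26, 6.28 and 6.31 in E2 libraries. The E2 libraries were all lower, though by little. The difference was -0.12 ± 0.06 (SE, adjusted p = 0.617, limma), and 349 of its exonic bases are shared with an antisense gene. *Hrh1*, the Gq-coupled receptor that sedating antihistamines block, had a mean of 4.62 (4.45 to 4.75) and a difference of -0.01 ± 0.10. *Hrh2*, the Gs-coupled receptor best known from the stomach, had 2.69 (2.38 to 2.83) and -0.19 ± 0.19, with 145 exonic bases shared with an antisense gene. *Hrh3* exceeded *Hrh1* 4.04- to 5.02-fold per kilobase of the longest transcript, and *Hrh1* exceeded *Hrh2* 3.80- to 5.73-fold. By all exonic bases these ratios were 4.09 to 5.08 and 4.55 to 6.85. Summed per kilobase, the family was at 40.3, 40.0 and 38.4 CPM in OVX and 35.5, 37.0 and 37.7 in E2 libraries, of which *Hrh3* made up 78.9%.

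Of the muscarinic receptors, *Chrm1* (ENSMUSG00000032773, chromosome 19, 8663789 to 8683587, plus strand), the main Gq-coupled acetylcholine receptor of forebrain excitatory neurons, had log2 CPM of 7.63, 7.53 and 7.56 in OVX and 7.48, 7.41 and 7.52 in E2 libraries. No E2 library reached the lowest OVX library, and the difference was -0.10 ± 0.06 (SE, adjusted p = 0.679, limma). *Chrm4* (ENSMUSG00000040495, chromosome 2, 91927249 to 91928688, plus strand), a Gi-coupled receptor common in striatum, had 3.81, 3.47 and 3.45 in OVX and 3.44, 3.09 and 3.41 in E2 libraries. Its groups were separated only by the gap between 3.45 in OVX replicate 3 and 3.44 in E2 replicate 1, and the difference was -0.26 ± 0.16 (adjusted p = 0.718). *Chrm5* (ENSMUSG00000074939, chromosome 2, 112479171 to 112480769, minus strand), a rare Gq-coupled receptor known from dopamine neurons, had 0.69, -0.03 and 0.70 in OVX and 0.85, 1.07 and 0.85 in E2 libraries. All E2 libraries were higher, and OVX replicate 2 lay far below the other 5. The difference was 0.47 ± 0.38 (adjusted p = 0.800, limma) and became 0.23 at its lowest with a library left out, with 33 to 71 reads per library behind it.

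**Figure D4:**
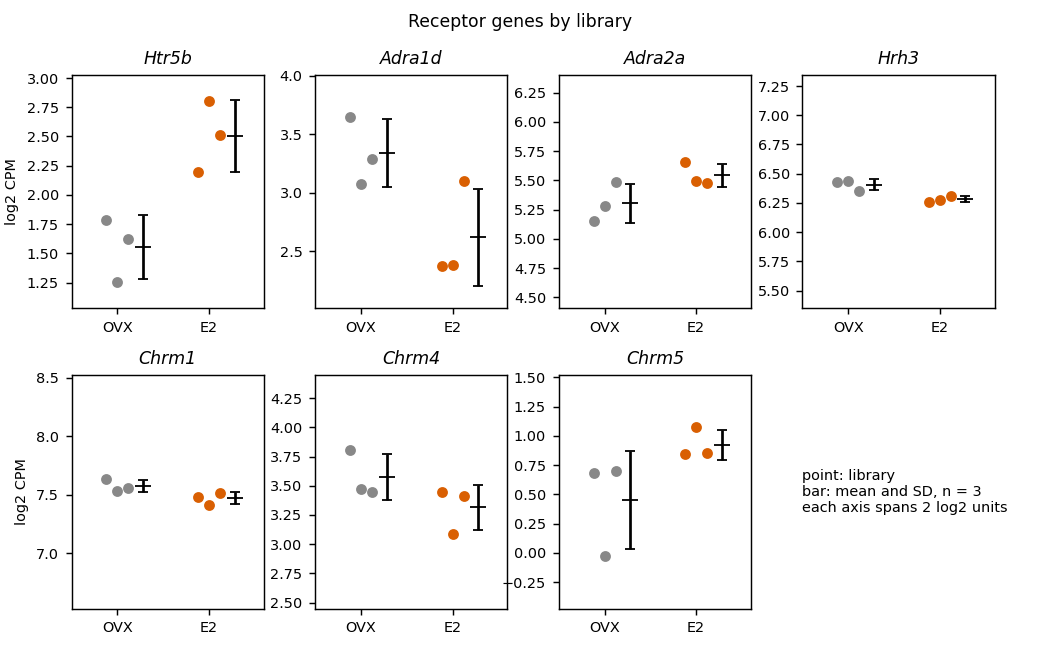
Log2 CPM in each library of the 3 receptors with an unadjusted p under 0.05 (*Htr5b*, *Adra1d*, *Adra2a*) and of the others whose groups did not overlap (*Hrh3*, *Chrm1*, *Chrm4*, *Chrm5*), with the mean and SD of 3 libraries. Every axis spans 2 log2 units, so the gap of *Htr5b* (0.95) can be compared by eye with those of *Hrh3* (-0.12) and *Chrm1* (-0.10).

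*Chrm3*, the Gq-coupled receptor of glands and smooth muscle that forebrain neurons also carry, had a mean log2 CPM of 5.49 (5.36 to 5.66) and a difference of -0.13 ± 0.09. *Chrm2*, the Gi-coupled receptor of the heart and of cholinergic nerve endings, had 3.15 (2.74 to 3.49) and -0.18 ± 0.19. Per kilobase of the longest transcript, *Chrm1* exceeded *Chrm3* 2.53- to 3.29-fold and *Chrm2* 16.0- to 24.8-fold, in every library. By all exonic bases these ratios were 3.52 to 4.59 and 16.5 to 25.5. The 5 genes together were at 54.0, 50.5 and 51.9 CPM per kilobase in OVX and 48.4, 46.8 and 48.3 in E2 libraries, 4 of them with a lower mean with E2, and *Chrm1* made up 58.7% of the sum. The forebrain excitatory markers given above beside *Adra1d* also had lower means in the E2 group, and their part in the *Chrm1* values was not tested. *Chrm1* shares 329 and *Chrm2* 142 exonic bases with other gene models.

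The nicotinic genes in the table were 5 neuronal subunits. *Chrnb2*, which forms with *Chrna4* the common high-affinity nicotine receptor of the brain, had log2 CPM of 6.61, 6.54 and 6.70 in OVX and 6.52, 6.60 and 6.46 in E2 libraries. The groups overlapped, with a difference of -0.09 ± 0.07 (SE, adjusted p = 0.788, limma). *Chrna4* had a mean of 4.68 (4.60 to 4.77), the narrowest range of the 37 genes, and a difference of 0.04 ± 0.09. Per kilobase there was 2.30 to 2.87 times as much *Chrnb2* as *Chrna4* by the longest transcript, and 1.93 to 2.41 times by all exonic bases. However, 1365 exonic bases of *Chrnb2* lie under *Adar*, an RNA-editing enzyme gene on the opposite strand, and without strand the reads of both cannot be told apart there.

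*Chrna7*, the subunit that forms calcium-permeable channels by itself, stood at 2.65 (2.46 to 2.95) with a difference of -0.17 ± 0.20. Per kilobase, *Chrna4* exceeded *Chrna7* 2.09- to 2.92-fold by the longest transcript and 3.04- to 4.25-fold by all exonic bases. *Chrnb3*, an accessory subunit, had 2.0 (1.17 to 2.61) and 0.49 ± 0.29, and *Chrna3*, the main subunit of autonomic ganglia, had 1.32 (0.87 to 1.77) and 0.36 ± 0.30. Both of these had overlapping groups.

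Summed by the signal they couple to, per kilobase of the longest transcript, Gq receptors held 45.4% to 48.2% of the level per kilobase over the 6 libraries, and Gi receptors held 29.5% to 32.8%. Gs receptors held 10.6% to 11.2%, channel subunits 10.2% to 11.1%, and *Htr5b*, whose coupling was not assigned, 0.499% to 1.43%. All 37 genes together were at 238.5 to 256.4 CPM per kilobase. The largest contributor was *Htr2c* among the 9 Gq receptors (48.6% of their sum), *Hrh3* among the 12 Gi receptors (39.3%), *Htr7* among the 9 Gs receptors (26.2%), and *Chrnb2* among the 6 channel subunits (56.9%). By transmitter, serotonin receptors held 37.2%, muscarinic 20.2%, histamine 15.4%, adrenergic 13.4% and nicotinic 9.80%. Per kilobase of all exonic bases, Gq receptors held 40.2% to 41.9%, Gi receptors 34.0% to 37.0% and serotonin receptors 31.8%.

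**Figure D5:**
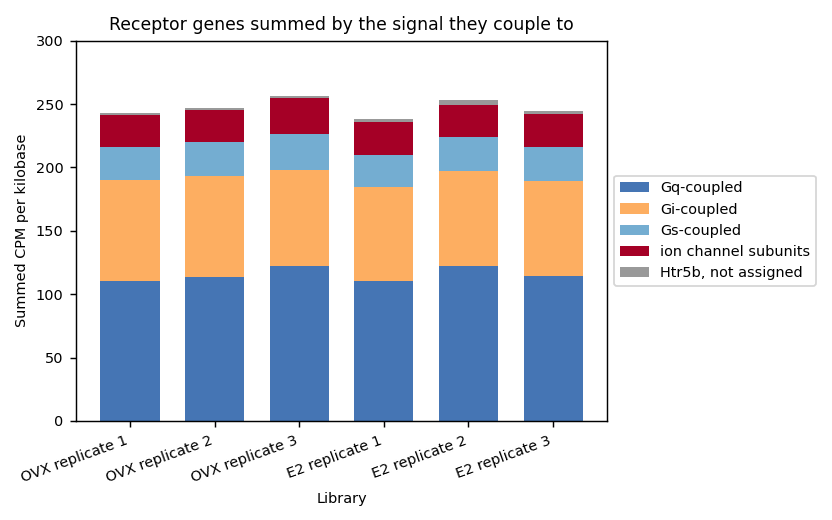
Summed CPM per kilobase of the longest transcript for the 37 receptor genes in each library, stacked by coupling class from 0. The totals lie between 238.5 and 256.4, with the Gq part the largest in all 6 libraries.

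The genes that make, move and break down these transmitters or carry the receptors' signals were read from 9 lists with 78 symbols, of which 65 were in the table. None of the 65 passed the adjusted threshold, 31 had a higher and 34 a lower mean with E2, and 7 (10.8%) had an unadjusted p under 0.05, against the 8.56% of all genes. Groups did not overlap for 8 (12.3%, against 13.7%). *Tph1*, *Tph2*, *Dbh*, *Pnmt*, *Chat*, *Slc18a3*, *Slc6a2*, *Slc6a4*, *Slc18a1*, *Slc22a2*, *Gna14* and *Grk1* were among those not analysed here.

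Of 7 genes of monoamine synthesis, 5 were higher on average with E2. The most abundant was *Qdpr*, which regenerates the cofactor of the hydroxylases, at a mean log2 CPM of 6.53. *Th*, the rate-limiting enzyme of dopamine and noradrenaline synthesis, had 0.95, 2.21 and 1.20 in OVX and 1.73, 2.54 and 2.49 in E2 libraries. Its groups overlapped, and the difference was 0.80 ± 0.34 (SE, adjusted p = 0.537, limma). The monoamine neuron markers *Th*, *Slc6a3* and *Slc18a2* averaged log2 CPM of 1.29 to 1.86 in OVX and 1.68 to 2.09 in E2 libraries, and the only cholinergic neuron marker in the table, *Slc5a7*, the choline transporter, was at -0.32 to 0.56 and -0.25 to 0.78. Both acetylcholine supply genes had higher means with E2, as had 1 of 4 monoamine transporters and 5 of 7 breakdown enzymes. The most abundant of each list were *Slc44a1*, a choline transporter, at a mean log2 CPM of 5.06 (difference 0.06), *Slc29a4*, a monoamine transporter, at 4.93 (-0.03), and *Ache*, which breaks down acetylcholine, at 6.81 (-0.05). *Gad1*, *Gad2* and *Slc32a1*, the inhibitory neuron markers, averaged 6.88 to 7.14 in OVX and 7.10 to 7.38 in E2 libraries. All 3 had a higher mean with E2 (median difference 0.15), and 0 passed the adjusted threshold. Groups overlapped for *Gad1* and *Slc32a1* but not for *Gad2* (difference 0.31 ± 0.09, adjusted p = 0.251, limma). The forebrain excitatory markers given above had lower means with E2. The part of either list in the receptor values was not tested.

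Downstream of the receptors, 4 of 10 G protein alpha subunits had a higher mean with E2, with *Gnas*, the Gs subunit, the most abundant at a log2 CPM of 10.73. Of 13 second messenger enzymes 6 were higher. *Adcy5*, an adenylyl cyclase, had the highest mean (7.97). *Plcb4*, a phospholipase C that Gq activates, had no overlap between groups (4.99, 5.31 and 5.19 in OVX, 5.41, 5.40 and 5.49 in E2 libraries), with a difference of 0.27 ± 0.09 (adjusted p = 0.404, limma). *Adcy1*, a calcium-activated cyclase, had a difference of -0.24 ± 0.11 (adjusted p = 0.563). Of 7 receptor kinases and arrestins 3 were higher, with *Arrb1* the most abundant (8.18).

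Among 9 genes that assemble or modulate nicotinic receptors, 4 had a higher mean with E2, with *Ly6h* the most abundant (9.01), and *Lypd1*, a membrane protein that lowers nicotinic currents, was lower without overlap (difference -0.15 ± 0.06, adjusted p = 0.464, limma). Of 6 genes that edit serotonin receptor transcripts or bind the receptors, 1 had a higher and 5 a lower mean, with *Dlg4* the most abundant (9.77). Among the lower ones, *Adarb1* was almost equal in both groups (difference -6.9e-05), and *Dlg4* (-0.04) and *Adar* (-0.07) differed by little. *Mpdz*, a scaffold protein that binds the *Htr2c* product, had log2 CPM of 6.82, 6.92 and 6.79 in OVX and 6.63, 6.59 and 6.64 in E2 libraries. All E2 libraries were lower, with a difference of -0.23 ± 0.06 (adjusted p = 0.240). *S100a10*, which binds *Htr1b* and *Htr4* products, was lower in each E2 library (difference -0.40 ± 0.12, adjusted p = 0.281), and *Adarb2*, a relative of the editing enzymes without known activity, was higher in each (difference 0.39 ± 0.11, adjusted p = 0.270).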

How the data were processed

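The labels give tissue, genotype and treatment, and 3 pooled libraries per group (OVX, E2). The deposited values were log2 CPM that the authors made from unstranded polyA libraries with Trimmomatic 0.38, STAR 2.6.0a and RSEM on GRCm38 (Ensembl release 98), limiting genes to protein-coding ones with a mean CPM above 1 in at least 1 group and applying TMM scaling and voom. The authors' table of fold changes and p-values was not used.

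The 13886 genes were fitted with limma 3.58.1 in R 4.3.3 on log2 CPM with a mean-variance trend and treatment as the only term (2-sided, Benjamini-Hochberg over all genes, adjusted p under 0.05, prior degrees of freedom 9.55). An exact permutation of 3 against 3 libraries cannot go below 0.1. Scaled library sizes and read counts were rebuilt from each library's lowest value, taken as the 0.5 that voom adds to a count of 0. Counting error and the spread between pools are both in these counts and were not separated. The script was tested on simulated data. Lengths and positions came from GENCODE mouse release 21, with 13881 genes matched, and promoters from RefSeq.

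Given in every library are the gene with the highest level per kilobase in each family, genes with an unadjusted p under 0.05 or without overlap, and genes whose range exceeds 1.5. Others have a mean and range. Some genes under this rule are not reported here, though counts over the receptors and lists include them. From the pathway lists, genes with an unadjusted p under 0.05 and the highest mean of each list are named. *Adora2a* and the other single marker genes named were chosen after their values were seen. The marker lists were neuron, inhibitory, forebrain excitatory, striatal, cholinergic and monoamine neuron, astrocyte, oligodendrocyte, microglia, endothelial and mural, and *Kiss1*. The receptors and all lists were chosen with earlier results of these data known.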

Additional observations from a re-analysis of the deposited data

How the results depend on the processing

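No receptor and none of the 65 pathway genes passed the adjusted threshold under any of the 17 alternatives of the limma fit, which were no trend, voom weights, sample quality weights, robust estimation, median centring, quantile normalization, 2 filters, 2 pseudocounts, a replicate block and each library left out (2 to 5 receptors and 3 to 10 pathway genes at an unadjusted p under 0.05). Over all genes, 40 passed, 0 without the trend (1017 at an unadjusted p under 0.05) and 20 to 66 with a library left out. The cause was not tested. The replicate block gave 35 genes and 0 receptors. Deviations of same-numbered libraries correlated at -0.112, -0.156 and -0.0977 across 12909 genes, so the numbers were not taken to pair libraries. The 10 highest receptors per kilobase were the same 10 under each alternative. Alternatives that change only the variance model or the gene filter leave the levels as they were, so under those this could not have come out otherwise. Per kilobase of all exonic bases, however, *Htr2c* fell from 55.9 to 29.2. Of 606 alternative values of 36 single receptors, 27 changed sign, in 9 genes with a difference of at most 0.08. These were *Htr3a*, which became 0.036 with sample quality weights, 0.0065 with log2(CPM + 1) and 0.00020 with log2(CPM + 0.1), *Adra1b*, -0.0090 with voom weights and -0.0035 with sample quality weights, and with quantile normalization *Drd3* (-0.030) and *Htr1f* (-0.14). With a library left out, the difference ran from -0.17 to 0.0064 for *Htr1a*, -0.082 to 0.067 for *Htr7*, -0.079 to 0.067 for *Hrh1*, -0.56 to 0.29 for *Drd2*, -0.18 to 0.26 for *Htr3a*, -0.28 to 0.24 for *Adra1b*, -0.17 to 0.12 for *Htr4*, -0.12 to 0.12 for *Drd3* and -0.23 to 0.30 for *Htr1f*. The median SE was 0.27 for the 21 receptors with a mean log2 CPM below 4, against 0.10 for the other 16, and the parts of depth and of spread between pools in this were not separated.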
